A study of Homo sapiens with 18 samples.

Results

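The ligands, receptors and signal transducers of the TGF-beta pathway were followed as 10 genes, TGFB1, TGFB2, INHBA, TGFBR1, TGFBR2, SMAD2, SMAD3, SMAD4, SKIL and TGFBI. Each was taken as the entry with exactly that symbol in both deposited tables of normalized counts, out of the 26485 genes that each table lists. Expression was measured by RNA sequencing in PANC-1, an established human cell line of pancreatic ductal carcinoma origin, with 18 libraries forming 6 groups of 3. In the first sequencing run the cells received 50 pM of an siRNA by transfection, either control siRNA, PKR siRNA 1 or else PKR siRNA 2, and RNA was taken 72 h later. PKR is the double-stranded RNA-dependent kinase encoded by EIF2AK2. In the second run the cells were kept for 72 h with DMSO, the solvent control, or with C16, a PKR inhibitor, at 400 nM or 800 nM. The question was how the transcripts of PANC-1 cells differ after loss of PKR or under its inhibitor. All groups are this 1 cell line, and the sources used here do not say that the replicates were separate cultures, so SDs and p-values describe the spread between libraries, which may be technical. Each run was normalized in a table of its own, and the effect of the run cannot be told apart from that of transfection against inhibitor, so every comparison stayed within a table.

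Depth ranged from 1512940 to 1873906 reads on genes among siRNA libraries and from 894145 to 1474308 among C16 libraries. EIF2AK2 had 95.5, 93.5 and 103 normalized counts in the control siRNA libraries, 10.00, 13.6 and 9.65 in those of PKR siRNA 1 and 7.96, 8.58 and 9.40 in those of PKR siRNA 2, and it lay between 39.2 and 54.1 in all 9 libraries of the C16 table. Of 6 epithelial markers, KRT8, KRT18 and KRT19, keratins of simple epithelia, were abundant, with means of 2915, 1479 and 1677 normalized counts in the siRNA table, while EPCAM (41.9), CDH1 (28.8) and KRT7 (11.4) were low, as they were in the C16 table (24.6, 22.9 and 3.98). The sum of the 6 was 5358 to 5451 in the control siRNA libraries, 3052 to 3279.8 in those of PKR siRNA 1 and 9586 to 10233 in those of PKR siRNA 2, and it was 7171 to 7572 with DMSO, 6033 to 6544 at 400 nM and 5172 to 5685 at 800 nM. Markers of fibroblasts summed to at most 11.9, with DCN and PDGFRA at 0 in all 18 libraries. Markers of immune cells summed to at most 4.86 and of endothelial cells to at most 1.07.

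TGF-beta is secreted in a latent form, released from its latent complex outside the cell, and bound by the type II receptor kinase TGFBR2, which phosphorylates the type I receptor TGFBR1. TGFBR1 in turn phosphorylates SMAD2 and SMAD3, which join SMAD4 and enter the nucleus, where they raise and lower transcription with partner factors. SKIL, also called SnoN, binds these SMADs and represses their targets, and it is itself a target. TGFBI is a secreted matrix protein named for its induction by TGF-beta, and INHBA encodes a subunit of activin A, a relative of TGF-beta that reaches the same SMADs through its own receptors. In epithelial cells the pathway is known for growth arrest and for the transition to a mesenchymal state, and SMAD4 is often lost in pancreatic ductal carcinoma.

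All levels below are normalized counts, that is, reads on a gene divided by the authors' scaling factor for the library. Differences are log2 fold changes fitted by limma on log2 (normalized count + 1), with the standard error (SE) and the Benjamini-Hochberg adjusted p over all genes tested. A gene is said to have risen or fallen where the adjusted p was under 0.05 and the fold change over 1.5. The count tables keep the abundance of RNA only, so fewer cells that express a gene and less RNA per cell cannot be told apart.

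Of the 10 genes, 9 passed the filter of a mean of 10 normalized counts in both tables, and INHBA did not. The lowest group mean among the 9 was 22.1 ± 4.29 (SD, n = 3), that of TGFBR1 at 800 nM C16. With PKR siRNA 1, TGFBR2 and SKIL fell and 0 genes rose, so that 2 of 9 (22.2%) passed, beside 21.1% of the 10593 genes tested. With PKR siRNA 2, TGFBR1 and TGFBI fell and 0 rose, again 22.2% of the tested members, beside 23.5% of all genes. With 400 nM C16 only SKIL fell among the 9 tested (11.1%), beside 12.5% of 9963 genes. With 800 nM C16, TGFBR1, SMAD3 and SKIL fell and 0 rose (33.3%), beside 25.7%. These shares lie near those of all genes, and with 9 genes each member moves the share by a wide step. The median log2 fold change over the 9 was -0.06 and -0.10 with PKR siRNAs 1 and 2, -0.24 at 400 nM and -0.41 at 800 nM, while the median over all genes tested lay between -0.01 and 0.00 in these comparisons. The 10 genes were chosen with earlier results of these data known, so these shares and medians are a description and not a test. Every member that rose or fell had groups that did not overlap, and the exact permutation test of its counts, two-sided over the 20 splits of 3 against 3 libraries, gave p = 0.1, the smallest that this design allows.

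**Figure D1:**
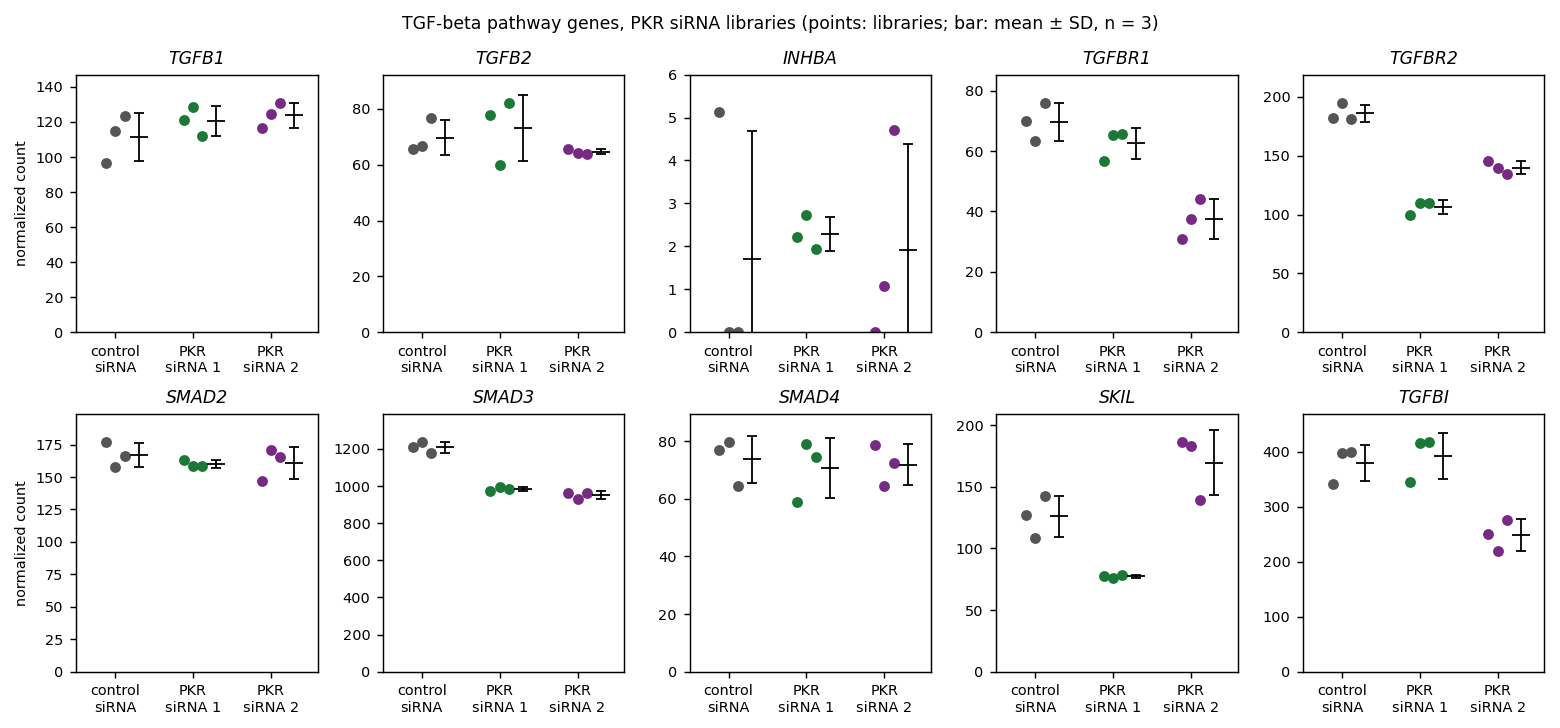
Normalized counts of the 10 genes in the 9 libraries of the siRNA table, with points for libraries and bars for the mean ± SD (n = 3) in each group. TGFBR2 and SKIL lie below control siRNA in all PKR siRNA 1 libraries, TGFBR1 and TGFBI in all PKR siRNA 2 libraries. The vertical axes start at 0 and differ between genes, and bars for INHBA are clipped at 0.

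**Figure D2:**
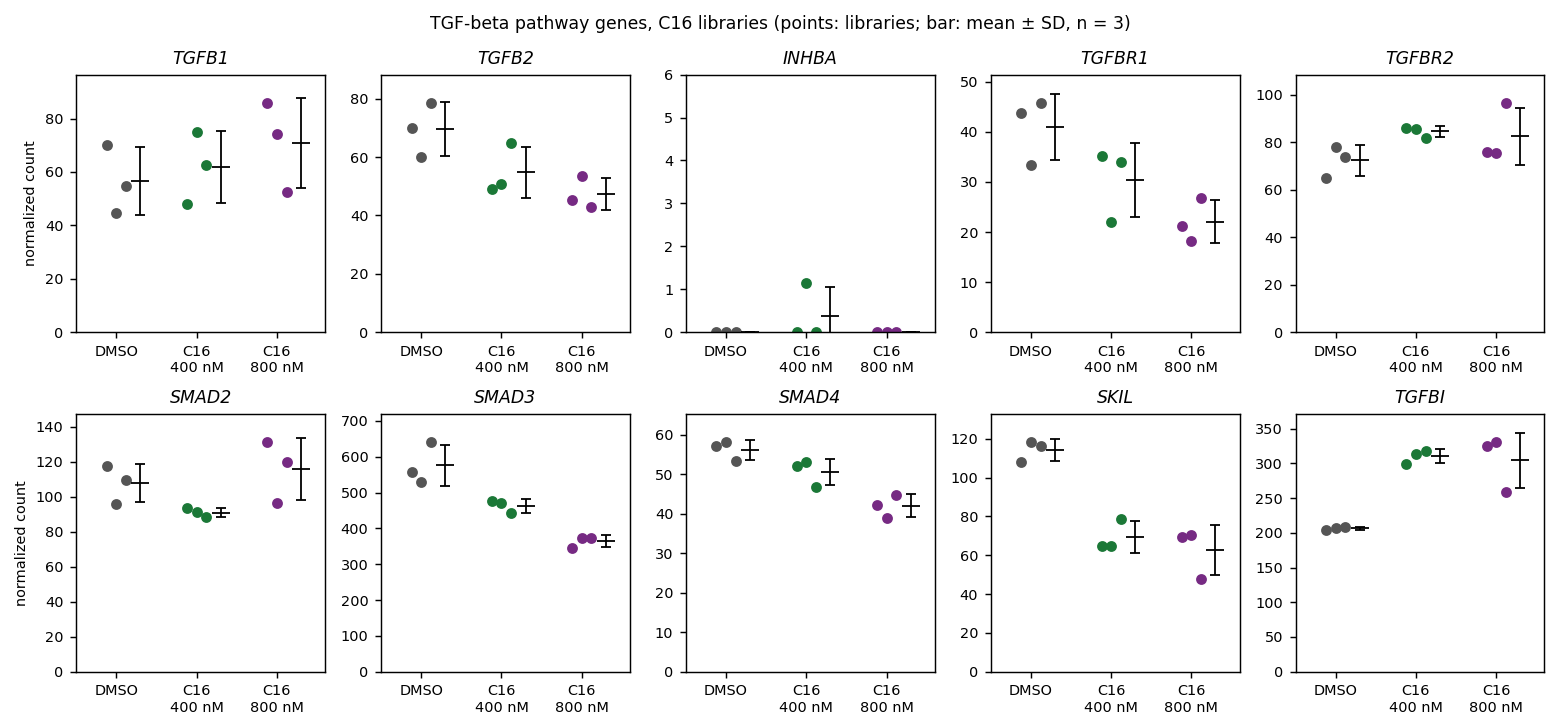
Normalized counts of the same genes in the 9 libraries of the C16 table, with points for libraries and bars for the mean ± SD (n = 3). SMAD3 is lower at 400 nM than with DMSO and lower again at 800 nM, SKIL is lower at both doses, and TGFBI is higher at both. The vertical axes start at 0 and differ between genes.

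Compared per kilobase of exon, SMAD3 was the most abundant of the 10 in unperturbed cells, at 182 ± 4.16 normalized counts per kb with control siRNA, followed by TGFBI at 135 ± 11.9. TGFB1 (43.2 ± 5.29) and TGFBR2 (39.5 ± 1.60) came next, and their libraries overlapped, so this pair is not ordered. SKIL (17.3 ± 2.32) overlapped with SMAD2 (15.5 ± 0.871), and TGFB2 (11.7 ± 1.03) with TGFBR1 (10.7 ± 0.954), ahead of SMAD4 at 8.40 ± 0.919. The DMSO libraries began with the same genes, SMAD3 at 87.0 ± 8.58, TGFBI at 73.7 ± 0.86 and TGFB1 at 21.9 ± 4.91 normalized counts per kb. In both controls the transcript of the type II receptor was thus above that of the type I receptor, and SMAD3 was well above its close relative SMAD2. Among all genes above 0 in the control siRNA libraries, 96.5% had a lower level per kb than SMAD3 and 48.3% a lower one than SMAD4.

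Of the ligands, TGFB1, the founding form of TGF-beta, passed no test. It lies on the minus strand at chr19:41330531-41353933 (hg38). It had 96.5, 115 and 123 normalized counts in the control siRNA libraries, 121, 129 and 112 in those of PKR siRNA 1 and 116, 124 and 131 in those of PKR siRNA 2. Every group overlapped with the others, and the log2 fold changes were 0.12 (95% interval -0.11 to 0.34) and 0.15 (-0.07 to 0.38). In the C16 table it had 70.0, 44.8 and 54.8 with DMSO, 47.9, 75.0 and 62.8 at 400 nM and 85.7, 74.3 and 52.5 at 800 nM. The spread within these groups was wide, and at 800 nM the log2 fold change of 0.32 had an interval of -0.02 to 0.66, which holds both no change and a rise past 1.5-fold.

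TGFB2, a ligand that needs the coreceptor betaglycan for efficient binding to TGFBR2, lies on the plus strand at chr1:218345334-218444619. Its exons overlap those of TGFB2-AS1, on the minus strand, and TGFB2-OT1, on the plus strand, over 25.2% of their length. Strand in counting is not stated, and TGFB2-OT1 shares the strand of TGFB2 in any case, so the counts of TGFB2 are uncertain. It had 65.7, 66.6 and 76.8 normalized counts in the control siRNA libraries, 77.8, 59.9 and 82.0 in those of PKR siRNA 1 and 65.6, 64.3 and 64.0 in those of PKR siRNA 2. These lay close together, those of PKR siRNA 2 just under the control, with log2 fold changes of 0.06 and -0.10 (limma, adjusted p = 0.764 and 0.581). With DMSO it had 70.0, 59.998 and 78.4, with 400 nM C16 48.9, 50.7 and 64.9 and with 800 nM 45.4, 53.6 and 42.9. The 3 libraries at 800 nM all lay below the 3 with DMSO, with a log2 fold change of -0.54 (SE 0.161, adjusted p = 0.00456) by limma, which at 1.46-fold stayed under the fold threshold. Without DMSO replicate 2 or C16 800 nM replicate 2 the difference passed it, at -0.64 and -0.63.

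INHBA, on the minus strand at chr7:41689003-41703108, was low in every group. Control siRNA libraries had 5.13, 0 and 0 normalized counts, PKR siRNA 1 libraries 2.22, 2.72 and 1.93 and PKR siRNA 2 libraries 0, 1.07 and 4.70, while 1 C16 library had 1.15 and the other 8 of that table had 0. A count of 0 reads still allows up to 3 in a library, and no difference in INHBA was detectable at this depth.

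Of the receptors, TGFBR2 fell with PKR siRNA 1, and TGFBR1 fell with PKR siRNA 2 and with 800 nM C16. TGFBR2, on the plus strand at chr3:30606502-30694141, had 182, 194 and 181 normalized counts in the control siRNA libraries, 100, 109.7 and 110.0 in those of PKR siRNA 1 and 145, 139 and 134 in those of PKR siRNA 2. The 3 groups did not overlap, with the control highest and PKR siRNA 1 lowest. It fell with PKR siRNA 1 by 1.74-fold (log2 fold change -0.80, SE 0.102, limma, adjusted p = 3.74e-10), and this was past the thresholds with any library left out. With PKR siRNA 2 it was lower by 1.33-fold, at -0.41 (SE 0.102, adjusted p = 0.000543) by limma, short of the fold threshold. In the C16 table TGFBR2 had 65.1, 78.1 and 73.9 with DMSO, 86.1, 85.3 and 81.9 at 400 nM and 75.6, 75.6 and 96.4 at 800 nM. The libraries at 400 nM lay above those with DMSO and those at 800 nM overlapped them, and neither log2 fold change, 0.22 and 0.18, passed the test (limma, adjusted p = 0.227 and 0.281).

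TGFBR1, on the plus strand at chr9:99105089-99154191, had 69.8, 63.4 and 75.8 normalized counts in the control siRNA libraries, 56.6, 65.3 and 65.6 in those of PKR siRNA 1 and 30.8, 37.5 and 44.2 in those of PKR siRNA 2. All 3 libraries of PKR siRNA 2 lay below the other 6, and those of PKR siRNA 1 overlapped the control. TGFBR1 fell with PKR siRNA 2 by 1.85-fold (log2 fold change -0.89, SE 0.161, limma, adjusted p = 3.13e-06), while PKR siRNA 1 gave a log2 fold change of -0.15 (95% interval -0.47 to 0.17, adjusted p = 0.459 by limma). In the C16 table the gene had 43.7, 33.3 and 45.7 with DMSO, 35.1, 21.9 and 34.0 at 400 nM and 21.2, 18.3 and 26.7 at 800 nM. The highest dose lay below DMSO in all libraries, and the lower dose overlapped both. It fell at 800 nM by 1.82-fold (log2 fold change -0.87, SE 0.221, limma, adjusted p = 0.001), and at 400 nM the log2 fold change of -0.44 did not pass (adjusted p = 0.142 by limma). The test of 800 nM against 400 nM gave -0.43 (95% interval -0.87 to 0.01), so the doses are not shown to differ for this gene.

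**Figure D3:**
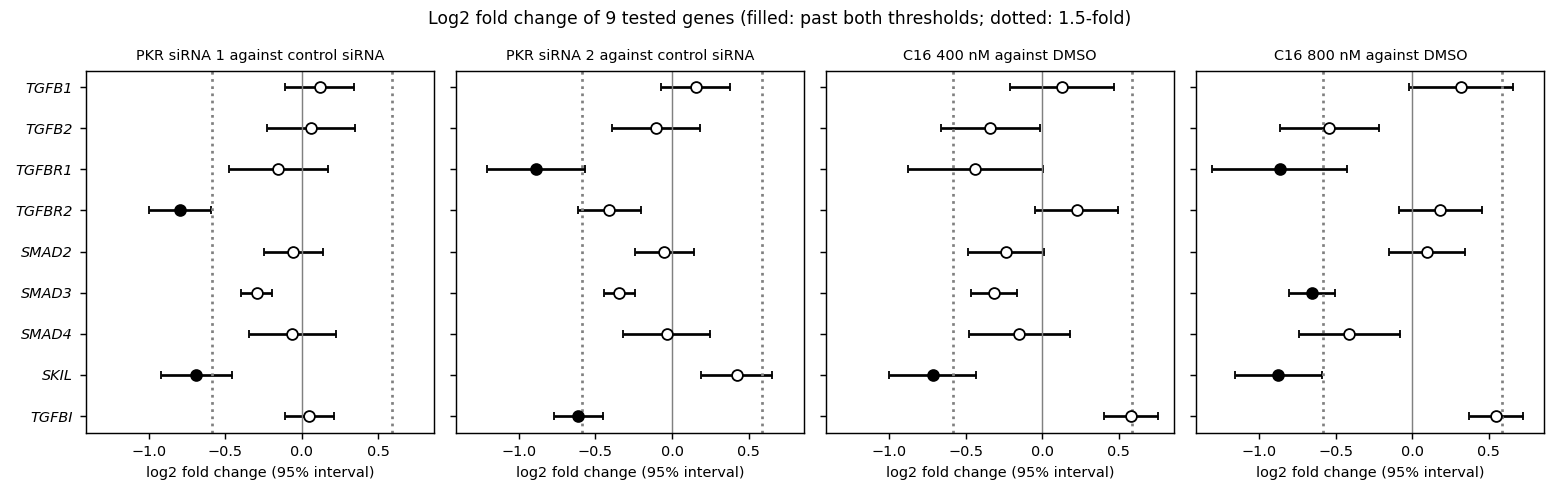
Log2 fold changes of the 9 tested genes against control siRNA or DMSO, with limma 95% intervals, filled where both thresholds were passed and with dotted lines at 1.5-fold. TGFBR2 falls past the line with PKR siRNA 1, TGFBR1 with PKR siRNA 2 and 800 nM C16, and TGFBI lies at or near the upper line with both C16 doses.

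The receptors were also set against each other within a library, per kb. This ratio and the ratios of the SMADs and of the ligands were chosen after the values were seen and are given with no test. TGFBR2 over TGFBR1 was 3.61, 4.26 and 3.31 in the control siRNA libraries, 2.45, 2.33 and 2.33 in those of PKR siRNA 1 and 6.54, 5.15 and 4.22 in those of PKR siRNA 2. The ratio was below every control library with PKR siRNA 1, and with PKR siRNA 2 it averaged 5.30 ± 1.16 against 3.73 ± 0.483 (SD, n = 3) but overlapped the control. With DMSO it was 2.07, 3.25 and 2.24, at 400 nM 3.41, 5.41 and 3.34 and at 800 nM 4.96, 5.74 and 5.01. Both C16 groups lay above all DMSO libraries, and they overlapped each other.

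Of the transducers that the receptors phosphorylate, SMAD3 fell at 800 nM C16 and SMAD2 passed both thresholds in no comparison. SMAD3, on the plus strand at chr15:67065857-67195195, had 1209.7, 1234 and 1179 normalized counts in the control siRNA libraries, 971, 996 and 984 in those of PKR siRNA 1 and 962, 929.6 and 963 in those of PKR siRNA 2. Both PKR siRNA groups lay below the control with no overlap and little spread. The differences were 1.23-fold and 1.27-fold, at -0.30 (SE 0.0512, adjusted p = 1.29e-06) and -0.34 (SE 0.0512, adjusted p = 2.87e-08) by limma, well past the spread between libraries and under the 1.5-fold threshold. With DMSO the gene had 558, 530.5 and 639.6, at 400 nM 475, 470.5 and 442 and at 800 nM 345, 374 and 374. The 3 groups of the C16 table were fully apart, in the order of dose. SMAD3 fell at 800 nM by 1.58-fold (log2 fold change -0.66, SE 0.0752, limma, adjusted p = 1.14e-10), a call that was lost without DMSO replicate 3, where the log2 fold change was -0.58. At 400 nM it was lower by 1.24-fold (log2 fold change -0.31, SE 0.0752, limma, adjusted p = 0.00108), and 800 nM was lower than 400 nM by 1.27-fold (log2 fold change -0.34, SE 0.0752, limma, adjusted p = 0.000872).

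SMAD2, on the minus strand at chr18:47833095-47931146, shares its receptors with SMAD3 and passed no test. It had 177, 158 and 166 normalized counts in the control siRNA libraries, 163, 159 and 158 in those of PKR siRNA 1 and 147, 170.5 and 166 in those of PKR siRNA 2, all overlapping. The 95% intervals of its log2 fold changes, -0.25 to 0.13 and -0.24 to 0.14, lie within the 1.5-fold limits. In the C16 table it had 118, 96.2 and 109.6 with DMSO, 93.6, 91.1 and 88.3 at 400 nM and 131, 96.3 and 120.2 at 800 nM, with the 400 nM libraries below all others. The log2 fold changes were -0.24 and 0.10 (limma, adjusted p = 0.153 and 0.546). SMAD4, the shared partner, at chr18:51030213-51085041 on the plus strand, had 77.0, 79.5 and 64.5 in the control siRNA libraries, 58.9, 78.9 and 74.3 in those of PKR siRNA 1 and 78.6, 64.3 and 72.4 in those of PKR siRNA 2. No siRNA group stood apart, with log2 fold changes of -0.06 and -0.04. It had 57.3, 58.1 and 53.3 with DMSO, 52.1, 53.0 and 46.8 at 400 nM and 42.4, 39.0 and 44.8 at 800 nM, 3 groups that did not overlap. Between DMSO and 400 nM the nearest libraries, 53.3 and 53.0, all but touched, and the log2 fold change of -0.15 did not pass (limma, adjusted p = 0.542). The difference at 800 nM was -0.41 (SE 0.164, adjusted p = 0.0359) by limma, 1.33-fold, short of the fold threshold.

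The ratio of SMAD3 to SMAD2 per kb within a library was 11.1, 12.7 and 11.6 in the control siRNA libraries, 9.67, 10.2 and 10.1 in those of PKR siRNA 1 and 10.6, 8.87 and 9.47 in those of PKR siRNA 2. Both PKR siRNA groups lay below the control. With DMSO it was 7.72, 8.97 and 9.49, at 400 nM 8.26, 8.40 and 8.13 and at 800 nM 4.28, 6.32 and 5.06. The highest dose lay below all other libraries of the C16 table, with a mean of 5.22 ± 1.03 against 8.73 ± 0.911 with DMSO (SD, n = 3), and 400 nM lay inside the DMSO range. The ratio of TGFB1 to TGFB2, 3.69 ± 0.296 with control siRNA, was 3.90 ± 0.945 with PKR siRNA 1 and 4.42 ± 0.315 with PKR siRNA 2. It was 1.88 ± 0.373 with DMSO, 2.63 ± 0.672 at 400 nM and 3.46 ± 0.801 at 800 nM. The PKR siRNA 2 and 800 nM groups were apart from their controls. With PKR siRNA 2 the gap was narrow, from 4.09 in its lowest library to 3.98 in the highest control. The counts of TGFB2 are uncertain (above), and so is this ratio.

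**Figure D4:**
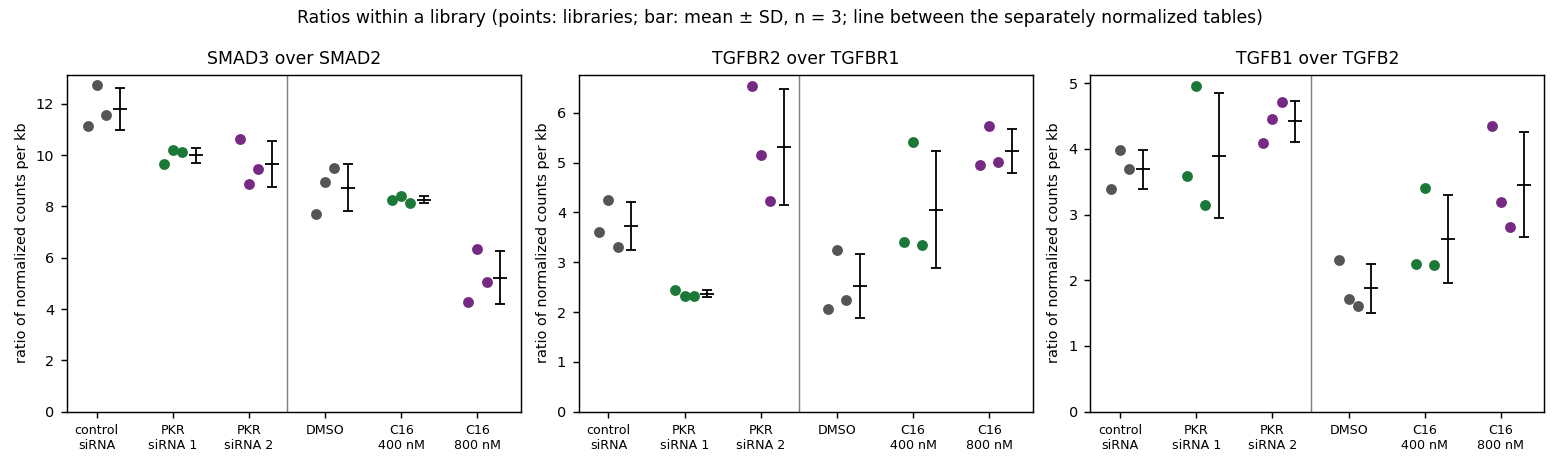
Ratios of normalized counts per kb within a library for SMAD3 over SMAD2, TGFBR2 over TGFBR1 and TGFB1 over TGFB2, with points for libraries and bars for the mean ± SD (n = 3). SMAD3 over SMAD2 is lowest at 800 nM C16, and TGFBR2 over TGFBR1 is lower with PKR siRNA 1 and higher in both C16 groups. The vertical line divides the separately normalized tables, across which levels are not compared.

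SKIL, the SMAD corepressor at chr3:170357685-170396849 on the plus strand, fell in 3 of the 4 comparisons with control siRNA or DMSO. It had 127, 109 and 142 normalized counts in the control siRNA libraries, 77.8, 76.2 and 78.2 in those of PKR siRNA 1 and 186, 183 and 139 in those of PKR siRNA 2. PKR siRNA 1 lay below all other libraries within a narrow range, and 2 of the 3 PKR siRNA 2 libraries lay above every control while the last lay among them. It fell with PKR siRNA 1 by 1.61-fold (log2 fold change -0.69, SE 0.116, limma, adjusted p = 7.09e-07). PKR siRNA 2 gave 0.42 (SE 0.116, adjusted p = 0.00172) by limma, in the other direction and under the fold threshold. In the C16 table SKIL had 108, 118 and 117 with DMSO, 64.9, 64.6 and 78.7 at 400 nM and 69.6, 70.7 and 47.7 at 800 nM. Both doses lay below DMSO and overlapped each other. It fell by 1.64-fold at 400 nM (log2 fold change -0.71, SE 0.142, limma, adjusted p = 7.53e-05) and by 1.84-fold at 800 nM (log2 fold change -0.88, SE 0.142, limma, adjusted p = 7.38e-07), and the difference between the doses, -0.16 (95% interval -0.44 to 0.12), did not pass.

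TGFBI, at chr5:136028895-136063818 on the plus strand, was lower with PKR siRNA 2 and higher with C16. It had 341, 397 and 400.1 normalized counts in the control siRNA libraries, 344, 416 and 417 in those of PKR siRNA 1 and 251, 219 and 276 in those of PKR siRNA 2. PKR siRNA 1 overlapped the control and all PKR siRNA 2 libraries lay below both. TGFBI fell with PKR siRNA 2 by 1.53-fold (log2 fold change -0.61, SE 0.0802, limma, adjusted p = 6.96e-10), just past the fold threshold. Left-out libraries took it to the other side of that threshold, at -0.58 without control siRNA replicate 2, -0.57 without control siRNA replicate 3 and -0.52 without PKR siRNA 2 replicate 2. In the C16 table TGFBI had 204, 208 and 209 with DMSO, 299, 314 and 318 at 400 nM and 325, 330.2 and 259 at 800 nM. All 6 C16 libraries lay above the 3 DMSO libraries, which lay very close together. The differences were 1.497-fold at 400 nM and 1.46-fold at 800 nM, at 0.58 (SE 0.0881, adjusted p = 4.4e-07) and 0.55 (SE 0.0881, adjusted p = 6.44e-07) by limma, both just short of the fold threshold. The 400 nM difference passed it without DMSO replicate 2 (0.59), DMSO replicate 3 (0.59) or C16 400 nM replicate 1 (0.61), and the 800 nM difference without C16 800 nM replicate 3 (0.66).

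The 2 PKR siRNAs were also compared directly, since they aim at the same mRNA. Between them 1 member (SKIL) was higher with PKR siRNA 2 past both thresholds and 2 (TGFBR1 and TGFBI) were lower, 33.3% of the 9 tested, beside 31.7% of all genes. SKIL had 169.5 ± 26.3 normalized counts with PKR siRNA 2 against 77.4 ± 1.04 with PKR siRNA 1 (SD, n = 3), a 2.16-fold difference (log2 fold change 1.11, SE 0.116, limma, adjusted p = 1.45e-13). TGFBR1 had 37.5 ± 6.68 against 62.5 ± 5.09 and differed by -0.73 (SE 0.161, limma, adjusted p = 6.91e-05). TGFBI had 248 ± 28.5 against 392 ± 41.7 and differed by -0.66 (SE 0.0802, limma, adjusted p = 4.04e-11), a call lost without PKR siRNA 2 replicate 2 (-0.57). TGFBR2 was 1.31-fold higher with PKR siRNA 2, under the fold threshold (limma, adjusted p = 0.000775). For SMAD3 the siRNAs differed by -0.05 with an interval of -0.15 to 0.05, which leaves out any difference of 1.5-fold. EIF2AK2 itself had 11.1 ± 2.19 and 8.65 ± 0.726 normalized counts with siRNAs 1 and 2, and their difference did not pass (limma, adjusted p = 0.282). The epithelial marker sum, which lay mostly in KRT8, KRT18 and KRT19, was lowest with PKR siRNA 1 and highest with PKR siRNA 2. In this it moved in the same direction as SKIL, and both were lower with C16 than with DMSO. Of the low markers, CDH1 went the same way (below), but EPCAM and KRT7 did not. In the siRNA table EPCAM (120 and 9.40) and KRT7 (20.5 and 1.99) were highest in a control siRNA library and lowest in a PKR siRNA 2 library. In the C16 table both were lowest in a DMSO library and highest in a C16 library. The part of the markers in these differences was not tested. Between the C16 doses limma passed 0 of the 9 members, as did edgeR and DESeq2, beside 5.09% of all genes by limma. The unadjusted p was under 0.05 for 2 members, SMAD3 (above) and SMAD2, whose log2 fold change was 0.33 (limma, adjusted p = 0.0579).

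Promoter sequence was set beside these levels because SMAD3 and SMAD4 bind the short SMAD box. The letters CAGAC or GTCTG, the same box read on either strand, were sought in the 250 bases before the start of each gene in RefSeq (GRCh38.p14), where a window was found for all 10 genes. The box occurred in 6026 of 16199 promoters (37.2%), so that a match is common, and in 3 of the 10 genes: SKIL, TGFBR1 and TGFB2. The windows of the 2 that fell are shown for the place of the box, which is in capitals, read 5′ to 3′ on the plus strand.
SKIL, chr3:170357580-170357639, box from 107 bases before the start: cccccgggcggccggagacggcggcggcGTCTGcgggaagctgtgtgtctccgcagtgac
TGFBR1, chr9:99104833-99104892, box from 240 bases before the start: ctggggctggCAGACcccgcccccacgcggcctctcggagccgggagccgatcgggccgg
TGFBR1, chr9:99104872-99104931, box from 183 bases before the start: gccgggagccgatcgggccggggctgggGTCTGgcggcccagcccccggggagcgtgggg
The palindrome GTCTAGAC, which joins the cores GTCT and AGAC and holds neither form of the box above, was in 28 promoters of all genes (0.173%) and in 0 of the 10, and the AP-1 letters TGACTCA or TGAGTCA in 550 (3.4%) and 0 of the 10. These are matches of letters in a window and not sites shown to be bound.

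The surrounding pathway was read from a list of 47 further components, of which 35 could be tested in the siRNA table and 31 in that of C16. With PKR siRNA 1, 2 rose and 8 fell (28.6% of those tested, beside 21.1% of all genes), with a median log2 fold change of -0.16. With PKR siRNA 2, 6 rose and 6 fell (34.3%, beside 23.5%), with a median of -0.09. With 400 nM C16, 4 rose and 1 fell (16.1%, beside 12.5%) and the median was 0.18, and with 800 nM 6 rose and 4 fell (32.3%, beside 25.7%) and the median was 0.16. The median over all genes was within 0.02 of 0 in each of these comparisons. The list was written with earlier results of these data known, so its shares are a description and not a test.

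Among the genes that store and release latent TGF-beta, LTBP1, which holds the latent complex in the matrix, had 205 ± 20.5 normalized counts in the control siRNA libraries, 111 ± 5.26 in those of PKR siRNA 1 and 81.6 ± 2.53 in those of PKR siRNA 2 (mean ± SD, n = 3). It fell with both siRNAs, with log2 fold changes of -0.88 and -1.32 (limma, adjusted p = 1.4e-10 and 8.91e-18). With DMSO it had 34.6 ± 6.28, at 400 nM 87.8 ± 16.0 and at 800 nM 94.6 ± 10.4, a rise of 1.32 and 1.44 (limma, adjusted p = 3.88e-10 and 1.25e-11). THBS1, a matrix protein that activates latent TGF-beta, rose in all 4 comparisons, by 1.53 and 1.47 with the siRNAs and 0.71 and 0.80 with C16. ITGAV, the integrin subunit that pulls on the latent complex, went from 1046 ± 29.8 to 529 ± 37.4 and 501 ± 32.1 with PKR siRNAs 1 and 2 and fell with both. FURIN, the protease that cleaves the TGF-beta precursor, fell with PKR siRNA 1 from 238 ± 10.4 to 50.8 ± 5.66 and had 282 ± 7.25 with PKR siRNA 2, where its log2 fold change of 0.25 was under the fold threshold.

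TGFBR3, the coreceptor betaglycan, had 32.1 ± 1.25 normalized counts with control siRNA and fell to 13.0 ± 2.23 with PKR siRNA 1, while it rose to 75.2 ± 1.66 with PKR siRNA 2. The direct test of the siRNAs gave 2.46 on the log2 scale (limma, adjusted p = 7.2e-18). With C16 it fell at both doses, from 24.0 ± 5.36 with DMSO to 11.3 ± 5.85 at 400 nM and 14.1 ± 4.21 at 800 nM. The log2 fold changes were -1.13 and -0.75 (limma, adjusted p = 0.00515 and 0.0483), the last close to the threshold. FSTL3, a secreted binder of activins, likewise fell with PKR siRNA 1 (-0.64) and rose with PKR siRNA 2 (1.11). SMAD6, an inhibitory SMAD best known from BMP signalling, went the same ways, -0.66 and 1.03, and fell at 800 nM C16 (-1.52). SMAD7, the inhibitory SMAD that feeds back on TGF-beta receptors, had 28.6 ± 8.75, 23.4 ± 2.596 and 49.8 ± 5.44 normalized counts with control siRNA and PKR siRNAs 1 and 2 and rose with the last by 0.81. PMEPA1, a target gene whose protein keeps SMAD2 and SMAD3 from the receptors, fell with both siRNAs (-1.25 and -1.42) and rose at 800 nM C16 (0.71), with 0.51 at 400 nM, under the fold threshold. Among ubiquitin ligases that act on receptors and SMADs, SMURF1 fell with PKR siRNA 2 (-0.95), with -0.56 for PKR siRNA 1, under the fold threshold. NEDD4L rose with both C16 doses (0.78 and 1.03). Of the nuclear corepressors related to SKIL in function, SKI rose with PKR siRNA 2 (0.63), TGIF2 fell with it (-1.04), and TGIF1 fell at 800 nM C16 (-0.69).

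Of 35 genes known to be induced by TGF-beta, 22 could be tested in the siRNA table and 21 in that of C16. With PKR siRNA 1, 3 rose and 7 fell (45.5%, beside 21.1% of all genes), with a median log2 fold change of -0.20, and with PKR siRNA 2, 4 rose and 8 fell (54.5%, beside 23.5%), with a median of -0.18. With 400 nM C16, 10 rose and 0 fell (47.6%, beside 12.5%), with a median of 0.35, and with 800 nM 7 rose and 3 fell (47.6%, beside 25.7%), with a median of 0.28. The list mixes matrix, adhesion and transcription factor genes that other pathways also control. It too was written with earlier results of these data known, so its shares are no test of the pathway.

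CTGF, a matricellular protein also driven by YAP, fell with PKR siRNA 2 (log2 fold change -0.92) and rose at both doses (1.28 and 1.20). Its relative CYR61 fell with both siRNAs (-1.59 and -1.69) and rose at 400 nM (0.64). BHLHE40, a transcriptional repressor, fell with PKR siRNA 2 (-1.005) and rose at both doses (1.42 and 1.23), and ANGPTL4 fell with both siRNAs (-0.73 and -1.08) and rose at 400 nM (1.33). SNAI1, SPHK1 and KLF10 rose at both doses, by 1.147 and 0.99, 1.04 and 1.145, and 0.62 and 0.72. SNAI1 was low, at 7.11 ± 2.49 normalized counts with DMSO, 17.0 ± 5.40 at 400 nM and 14.9 ± 3.82 at 800 nM (limma, adjusted p = 0.00723 and 0.0135).

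Among the other induced genes, TGM2, a transglutaminase, rose with both siRNAs (0.93 and 1.16) and at 400 nM (0.63), and ZEB1, a repressor of epithelial genes, rose with both siRNAs (0.60 and 0.80). PDGFB, a growth factor chain, fell with both siRNAs (-2.21 and -1.30) and at 800 nM (-0.98). COL1A1, a collagen chain, fell with PKR siRNA 1 (-1.86) and at 800 nM (-1.08) and had 0.22 with PKR siRNA 2 (limma, adjusted p = 0.224). HMGA2, a chromatin protein, and MMP2, a matrix protease, fell with both siRNAs, at -0.92 and -1.56 and at -1.04 and -1.51. VIM, the mesenchymal filament protein vimentin, had 3057 ± 23.0 normalized counts with DMSO and fell at 800 nM to 1999.5 ± 109.

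Of 5 genes that TGF-beta is known to lower in epithelial cells, 4 rose and 1 fell with PKR siRNA 1 and 4 rose with PKR siRNA 2 (100% and 80.0%, beside 21.1% and 23.5% of all genes), with medians of 1.04 and 3.01 on the log2 scale. ID1, an inhibitor of differentiation that BMPs induce, went from 109 ± 7.59 to 211 ± 15.1 and 883 ± 92.0 normalized counts with siRNAs 1 and 2, and from 132 ± 6.71 with DMSO to 85.3 ± 7.55 and 44.1 ± 3.20 with C16. ID1 rose with both siRNAs and fell at both doses. ID3 did not fall with C16. Its log2 fold changes of 0.51 at 400 nM and 0.35 at 800 nM did not pass (limma, adjusted p = 0.0705 and 0.178). This short list holds ID1 and its relatives ID2 and ID3. It was chosen with earlier results of these data known, so its shares are no test of the pathway. Of the 4 tested in the C16 table, 2 fell at each dose, ID1 and CDH1 (50%, beside 12.5% and 25.7%). This count dropped to 1 without DMSO replicate 1 or C16 400 nM replicate 3 at 400 nM, and without DMSO replicate 1 or 3 or C16 800 nM replicate 2 or 3 at 800 nM. CDH1, the epithelial cadherin, also counts among the epithelial markers, and it fell with PKR siRNA 1 (-0.64), rose with PKR siRNA 2 (1.54) and fell at both doses (-0.74 and -0.64). MYC rose with PKR siRNA 1 (1.04), with 0.56 for PKR siRNA 2, under the fold threshold.

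**Figure D5:**
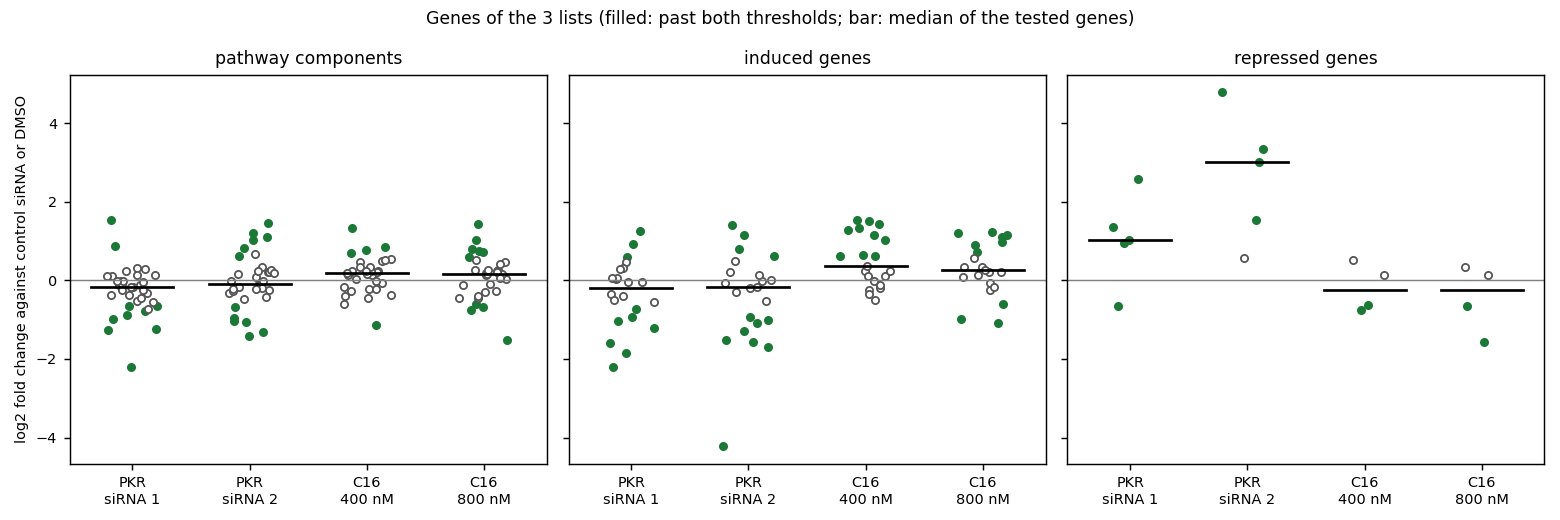
Log2 fold changes of the tested genes of 3 lists, further pathway components, genes induced by TGF-beta and genes repressed by it, against control siRNA or DMSO. Points are genes, filled where both thresholds were passed, and bars are medians of the tested genes. With 400 nM C16, 10 induced genes pass upward and 0 downward, and the largest rises among repressed genes are with PKR siRNA 2.

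For each of the 5 members that passed in a comparison with control siRNA or DMSO, the genes with the most similar pattern were sought among 5269 genes, by the mean of the Pearson correlations over the 9 libraries of each table. Libraries of a group share a condition, so these values describe the pattern and carry no test. TGFBR2 was most like FAM102A (mean r = 0.92) and TOP1 (0.86). SKIL was most like IRF2BPL and SEMA3C (both 0.95), TGFBR1 like HDAC7 (0.91) and ARHGAP29 (0.90), TGFBI like CHTF18 and GALNT10 (both 0.94), and SMAD3 like TNFAIP2 and ACTB (both 0.98).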

How the data were processed

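RNA of PANC-1 cells was measured in 18 poly(A) libraries made with a directional kit, and groups were taken from the sample labels. The authors aligned reads to hg38 using TopHat, assigned them to genes using featureCounts and scaled the counts by TMM within TCC, in 1 table per sequencing run. Each deposited value is thus a signal, the reads of a gene over the scaling factor of its library. The number of columns with no sample was 0. The annotation and the use of strand in counting are not given in the sources used here, and the 400 nM dose comes from the labels alone. Divided by what 1 read is worth in its library, each value came out whole within 0.02 reads, so reads could be recovered. Depth was 1512940 to 1873906 reads on genes in the siRNA table and 894145 to 1474308 in that of C16. Counting error alone gives TGFBR1 at 800 nM C16 a coefficient of variation of 21.7% and SMAD3 with control siRNA 2.90%.

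The test was limma 3.58.1 (R 4.3.3, trended eBayes, two-sided) on log2 of the normalized count plus 1. Each fit held the 9 libraries of a table and every gene whose mean reached 10 normalized counts. Fold changes on this scale understate those of low genes. The thresholds were a Benjamini-Hochberg adjusted p under 0.05 over all genes tested and a fold change over 1.5, as in the study's methods. Comparisons within a table share libraries. As alternatives, edgeR 4.0.16 (quasi-likelihood) and DESeq2 1.42.0 were run on recovered reads, and limma was rerun with a pseudocount of 0.5 or 5, a minimum mean of 30 or none, values rescaled by median of ratios, the compared groups alone, replicate as a block, and single libraries removed. The fits were tested on simulated data. The 10 genes and the lists of 47 pathway components, 35 induced and 5 repressed genes, written from general knowledge, were chosen with earlier results of these data known, as were the tests. Named genes are the 10, EIF2AK2, list genes past both thresholds in at least 1 comparison with a control, and, for each member past them, the 2 genes of most similar pattern among genes whose mean reached 50. Values of some listed genes are not reported here, though the list counts include them. The ratios between members and their left-out libraries were added after the values were seen. Promoter windows came from RefSeq (GRCh38.p14), at the start nearest to the deposited 5′ end of each gene.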

Additional observations from a re-analysis of the deposited data

Results flagged for a closer look

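The 2 PKR siRNAs aim at the same mRNA, and for 3 of the 9 tested genes their effects differed in the direct test between them (limma, Benjamini-Hochberg adjusted p). The log2 fold change of PKR siRNA 2 against PKR siRNA 1 was 1.11 for SKIL (adjusted p = 1.45e-13), -0.73 for TGFBR1 (adjusted p = 6.91e-05) and -0.66 for TGFBI (adjusted p = 4.04e-11). For each of them all 3 libraries of one siRNA lay to one side of all 3 of the other. Among all genes tested 31.7% passed in this comparison, so a difference of this kind was common in these libraries.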

How the results depend on the processing

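Over the 54 log2 fold changes of the 9 tested genes in 6 comparisons, all 486 values from the 9 settings that keep every library had the direction and the side of the thresholds reported. With single libraries left out, 294 of 324 values did, 5 lost a call, 6 gained one and 19 changed sign. Each of the last was in a comparison where the gene had not passed. The ranges of those with a change of sign were -0.027 to 0.20 (TGFB2), -0.16 to 0.061 (SMAD4) and -0.029 to 0.14 (TGFBI) with PKR siRNA 1, and -0.094 to 0.011 (SMAD2) and -0.13 to 0.040 (SMAD4) with PKR siRNA 2. They were -0.014 to 0.087 (TGFB1), -0.036 to 0.069 (SMAD2) and -0.097 to 0.11 (SMAD4) between the siRNAs, -0.025 to 0.30 (TGFB1) at 400 nM C16, and -0.16 to 0.016 (TGFBR2), -0.26 to 0.021 (SKIL) and -0.097 to 0.079 (TGFBI) between the doses. Left-out libraries took the number of the 10 genes past the thresholds with PKR siRNA 2 over 1 to 2 and with 400 nM C16 over 1 to 2, both through TGFBI. At 800 nM C16 the number also moved, down where SMAD3 lost its call and up where TGFB2 or TGFBI gained one. Between the siRNAs the number dropped where TGFBI lost its call.

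List counts that moved by at most 1.5-fold are left out here. Of the lists, pathway components past the thresholds at 400 nM C16 were 3 with a minimum mean of 30, and between the doses 4 with no filter, 1 with a minimum mean of 30 and 1 by DESeq2. Repressed genes were 1 at 400 nM with a minimum mean of 30 and by DESeq2, and 1 at 800 nM with a pseudocount of 5, a minimum mean of 30 and by DESeq2. A minimum of 30 tests fewer genes, and no filter more. For the rest the cause was not tested. Left-out libraries gave 1 to 2 in each of these repressed counts and 1 to 2 components between the doses. The ratios of TGFB1 to TGFB2 with PKR siRNA 1 (-0.13 to 0.20 on the log2 scale) and of SMAD3 to SMAD2 between the siRNAs (-0.13 to 0.00) changed sign with a library left out.

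Replicate numbers are shared between groups and were not taken as pairs. Libraries of the same number did not deviate together (r from -0.05 to 0.03). Much of the deviation between replicates was counting error (chi-square per degree of freedom 1.03 to 1.63), so a weak pairing would not show in r. With a replicate block, 2, 2 and 3 of the 10 genes passed in the siRNA comparisons and 1, 3 and 0 in the C16 comparisons, as without it, and no list count changed. Depth limits INHBA most of the 10 genes and, of the 9 tested, TGFBR1 in the C16 table.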

Other observations

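Further list genes passed the thresholds in at least 1 comparison with control siRNA or DMSO. INHBB, another activin subunit, had 98.5 ± 7.91 normalized counts with control siRNA and fell to 57.8 ± 12.4 with PKR siRNA 1 (SD, n = 3). GDF11, a ligand of activin receptors, rose with PKR siRNA 1 (0.88 on the log2 scale) and at 800 nM C16 (0.60). LTBP2, a relative of LTBP1 in the matrix, rose at 400 nM from 263 ± 56.6 to 471 ± 25.1, and LTBP4 fell at 800 nM (-0.61). FKBP1A, which binds TGFBR1 and holds it inactive, had 932 ± 54.8 normalized counts with control siRNA, fell to 582 ± 20.6 with PKR siRNA 2, and rose at 800 nM from 364 ± 28.5 to 607 ± 17.8. IL11, a cytokine, rose with PKR siRNA 1 (1.25), and CDH2 and IGFBP3 rose with PKR siRNA 2 (0.61 and 1.41). ID2 and ID3, relatives of ID1, had 5.15 ± 2.00 and 37.0 ± 4.35 normalized counts with control siRNA, and rose to 34.3 ± 3.06 and 95.4 ± 9.50 with PKR siRNA 1 and to 162 ± 17.2 and 384 ± 22.5 with PKR siRNA 2.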
